A study of Mus musculus with 3 samples.

Results

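The SOCS genes (Socs1 to Socs7) and Cish encode the suppressors of cytokine signalling, and their occupancy by EZH2 was described in mouse macrophages with and without lipopolysaccharide (LPS). The 8 genes were taken by name from a RefSeq gene table of 21887 protein-coding genes on mm10, and every EZH2 interval and summit from 10 kb before to 10 kb after each gene was used. This gave 4 of the 4651 intervals of the LPS library and 8 of the 9643 intervals of the untreated (NT) library. The assay was ChIP-seq, which sequences the DNA bound by an antibody's target, here EZH2, in bone marrow-derived macrophages, which are marrow cells of adult C57BL/6 mice grown into macrophages with M-CSF. The LPS cells were stimulated for 2 h at a dose the labels do not give, the NT cells received no stimulus, and both were otherwise grown in the same way. Each condition had 1 EZH2 library, and a further library of input DNA was not used here. No difference between the conditions has a replicate check or a test, and the labels do not say how many mice gave the cells. ChIP-seq measures no RNA, so the cell type could not be checked by its expressed markers.

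SOCS proteins carry an SH2 domain, which binds phosphorylated tyrosines of receptors or kinases, and a SOCS box, which recruits an E3 ubiquitin ligase with elongins and a cullin. Many of these genes are induced by JAK-STAT signalling and switch off the receptors that induced them. In macrophages Socs1 restrains interferon and Toll-like receptor responses, and Socs3 restrains signalling by IL-6. EZH2 is the catalytic subunit of polycomb repressive complex 2, which methylates H3K27, a mark of repressed and poised promoters.

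An interval is a stretch that the authors listed as enriched, and its summit value is the whole number they gave for its summit. The unit of this value, the read depth and any scaling between the libraries are not given in the sources used here. A lower LPS value therefore cannot be read as less EZH2. Values ran from 7 to 100 in LPS (median 16) and from 11 to 253 in NT (median 27). The track of the stimulated library carries the name TLR. It was taken as that of the LPS sample, since LPS signals through a Toll-like receptor (TLR) and no other EZH2 sample was stimulated.

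Promoters are shown for the 4 of 8 genes with a RefSeq promoter entry (GRCm38.p6, the assembly of mm10), because in 2 of them the EZH2 interval covers the promoter and in the other 2 it does not. Each runs 5′ to 3′ on the gene's strand, from 250 bases before the transcription start to the base 50 counted from the start as 1. Capitals mark TTCNNNGAA, the letters of a STAT-type site, and GAAA followed by any 2 bases and GAAA, the letters of paired elements bound by interferon regulatory factors. Both strands were searched, and the paired GAAA was added after the sequences were seen. The Socs1 promoter is chr16:10785487-10785786 on the minus strand, that of Socs3 is chr11:117969317-117969616 on the minus strand, that of Socs4 is chr14:47276670-47276969 on the plus strand and that of Cish is chr9:107296409-107296708 on the plus strand.
Socs1: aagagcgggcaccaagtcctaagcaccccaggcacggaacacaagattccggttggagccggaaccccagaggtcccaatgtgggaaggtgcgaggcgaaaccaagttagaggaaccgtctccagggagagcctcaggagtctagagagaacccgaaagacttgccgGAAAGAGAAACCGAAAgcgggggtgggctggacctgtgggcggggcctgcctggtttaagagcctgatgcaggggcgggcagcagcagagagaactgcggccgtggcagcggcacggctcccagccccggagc
Socs3: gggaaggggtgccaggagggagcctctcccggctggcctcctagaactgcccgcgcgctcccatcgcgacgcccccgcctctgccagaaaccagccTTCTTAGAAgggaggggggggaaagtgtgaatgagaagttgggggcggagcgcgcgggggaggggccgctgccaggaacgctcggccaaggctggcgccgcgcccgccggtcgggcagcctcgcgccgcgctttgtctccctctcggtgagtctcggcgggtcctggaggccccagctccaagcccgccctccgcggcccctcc
Socs4: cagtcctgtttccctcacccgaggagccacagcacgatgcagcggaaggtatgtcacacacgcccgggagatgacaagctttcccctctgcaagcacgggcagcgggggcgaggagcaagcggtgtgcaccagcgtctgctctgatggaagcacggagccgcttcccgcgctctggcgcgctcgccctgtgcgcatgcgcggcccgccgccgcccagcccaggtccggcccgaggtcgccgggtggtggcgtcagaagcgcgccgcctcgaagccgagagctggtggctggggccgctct
Cish: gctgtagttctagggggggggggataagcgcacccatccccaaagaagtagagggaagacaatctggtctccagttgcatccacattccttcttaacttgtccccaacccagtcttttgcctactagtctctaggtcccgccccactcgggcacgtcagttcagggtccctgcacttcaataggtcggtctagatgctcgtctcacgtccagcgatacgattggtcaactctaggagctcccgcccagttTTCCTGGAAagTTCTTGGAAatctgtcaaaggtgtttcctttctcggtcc

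In Socs1, 2 overlapping matches to the paired GAAA lay from -83 to -68, counted from the transcription start. The paired GAAA was present in 3.44% of 32851 RefSeq promoters of this length. In Socs3, 1 match to TTCNNNGAA lay from -154 to -146, and in Cish 2 lay from 1 to 9 and from 12 to 20. TTCNNNGAA was present in 8.30% of all promoters, and was not found in the windows of Socs1 and Socs4. The NF-kB-type letters, GGG followed by any 5 bases and CC, were matched 3 times in Socs1 (the matches overlapped in part) and once in each of Socs3, Socs4 and Cish, and in 50.8% of all promoters. Such matches are letters only and do not show that a factor binds there.

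Of the 8 genes, 3 had an LPS interval within 10 kb (37.5%) and 6 an NT interval (75%). Over all protein-coding genes, not matched by length, these shares were 21.2% in LPS and 46.0% in NT. Socs1, Socs2 and Socs3 had intervals in both libraries, Socs4, Socs7 and Cish in NT alone, and Socs5 and Socs6 in neither. Intervals in both were found at 20.6% of all genes, intervals in NT alone at 25.4%, in LPS alone at 0.635% and in neither at 53.3%. With the NT list shortened by summit value to the number of LPS intervals, 3 members had an NT interval and 0 had one in NT alone. Among Socs1, Socs2, Socs3 and Cish, the members best known as cytokine-induced, 3 of 4 had an LPS interval and 4 of 4 an NT interval. Among Socs4 to Socs7, which have longer N-terminal regions, 0 of 4 had an LPS interval and 2 of 4 an NT interval. The NT intervals counted here for Cish and Socs4 lay over other genes, and without these Cish and Socs4 had none.

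**Figure D1:**
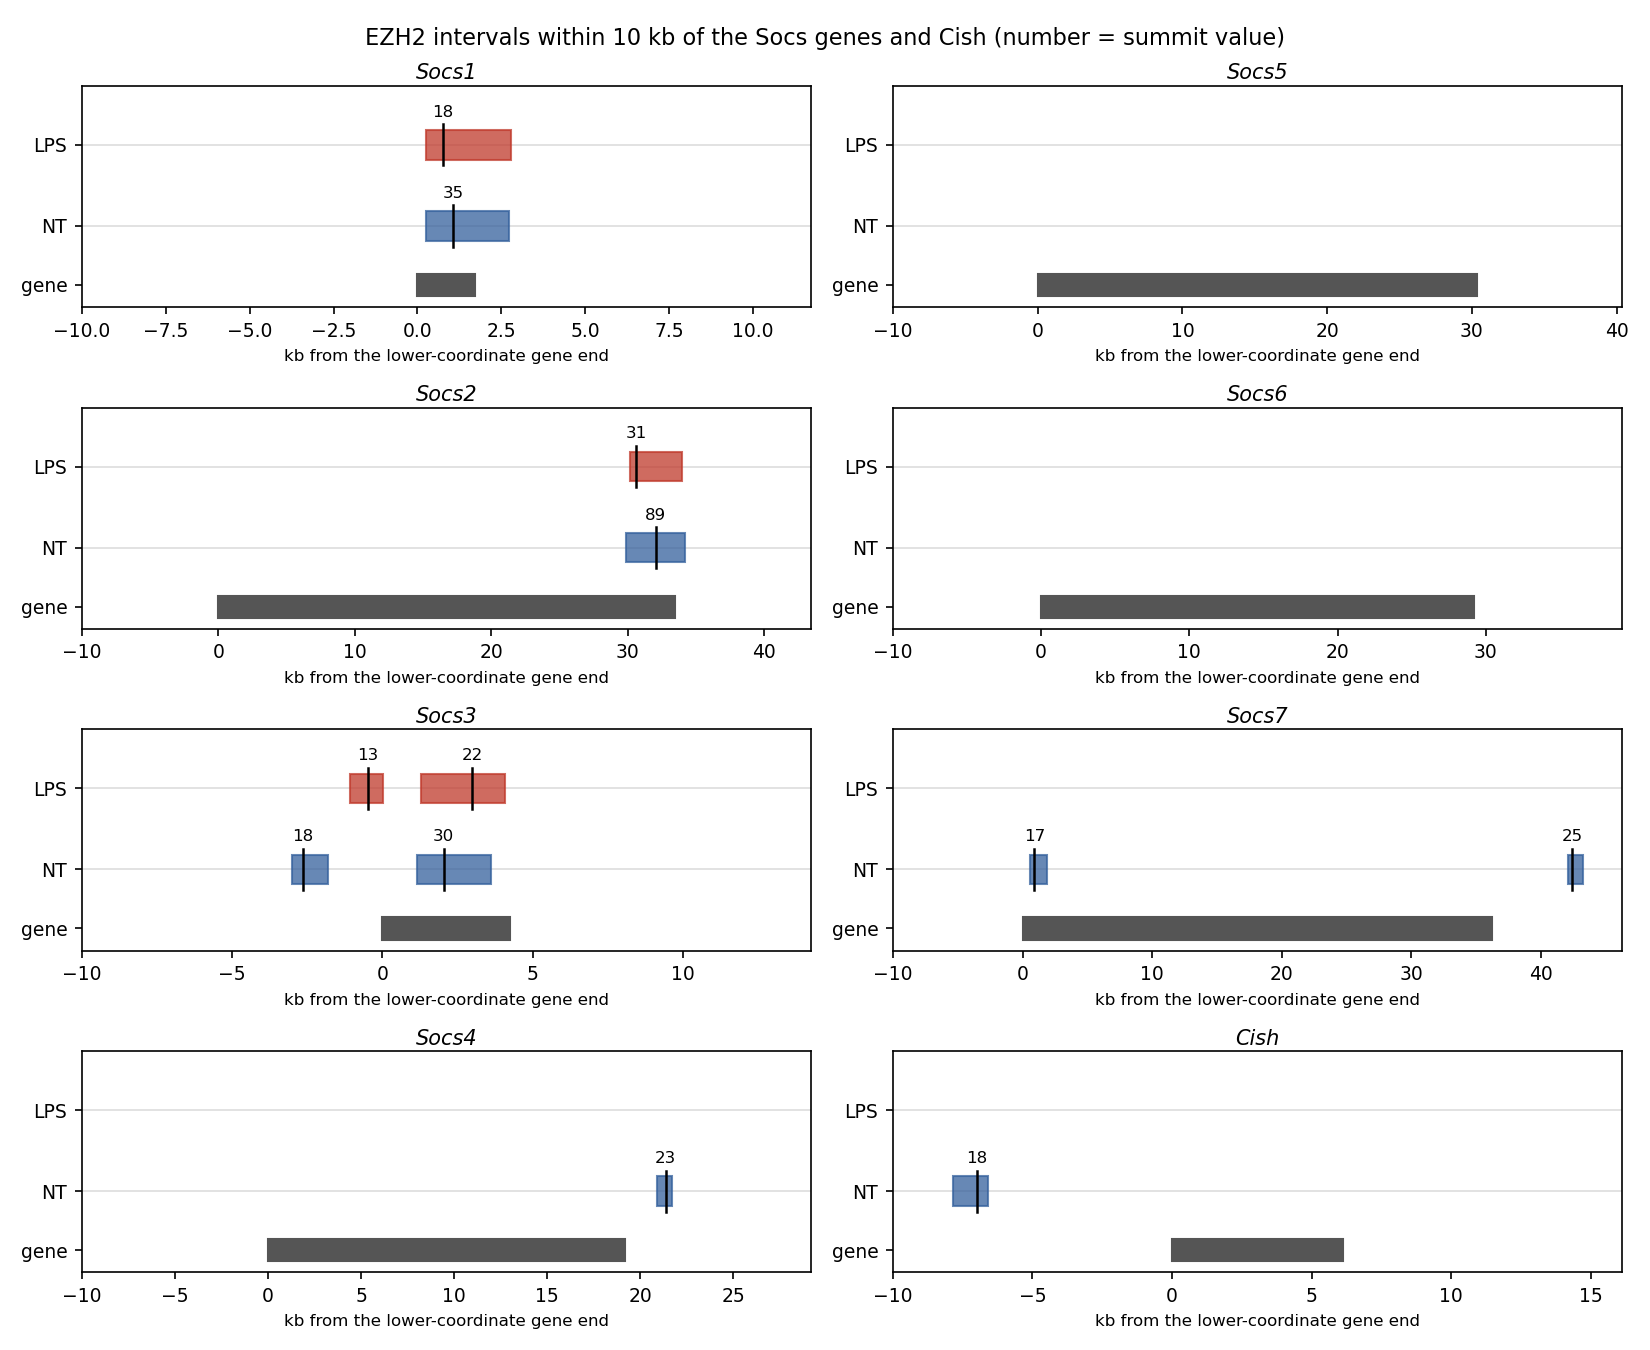
EZH2 intervals within 10 kb of each of the 8 genes, plotted in kb from the gene end with the lower coordinate. Bars are intervals of the LPS library (upper row, red) and the NT library (middle row, blue), the grey bar is the gene, the black tick is the summit and the number is its summit value. Socs1, Socs2 and Socs3 carry overlapping intervals of both libraries, and Socs5 and Socs6 carry none.

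Of the 8 NT intervals, 3 lay over another gene. Those counted for Cish and Socs4 lay 6590 and 1737 bp outside them, and overlapped Mapkapk3, which encodes a kinase activated by p38, and Mapk1ip1l with the predicted gene Gm35078. At Socs7, 1 of its 2 NT intervals lay over Arhgap23. The neighbours Wdhd1, 58 bp from Socs4, and Gpr179, 9935 bp from Socs7, met none of the intervals counted for these members. With intervals nearer to another gene left out, 3 of the 8 genes had an LPS interval and 4 an NT interval, against 16.6% of all genes in LPS and 38.6% in NT. Those with an NT interval were then Socs1, Socs2, Socs3 and Socs7. No other protein-coding gene lay within 10 kb of Socs2, Socs3, Socs5 or Socs6.

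Socs1 encodes an inhibitor that blocks the catalytic site of JAK kinases. It is a short gene of 1729 bp on chromosome 16 (10783808 to 10785536). Its LPS interval ran from 10784050 to 10786601 with a summit value of 18, and its NT interval from 10784052 to 10786545 with a value of 35. The intervals were almost the same stretch, with edges 2 and 56 bp apart and 2494 shared bases. In gene direction the LPS interval ran from -1065 to 1486 bp and the NT interval from -1009 to 1484 bp relative to the transcription start. They covered 86.0% (LPS) and 85.9% (NT) of the gene and all 300 bases of the promoter shown above. The summits lay 960 bp after the start in LPS and 656 bp after it in NT. The LPS to NT ratio of the values was 0.514 (log2 -0.96), close to the median ratio of 0.50 over the 4027 merged regions shared by both libraries. Of 1029 such regions with a like NT value (at most 5 away), 385 had a ratio as high or higher (37.4%, 95% Wilson interval 34.5 to 40.4%). The testis genes Tnp2, Prm3 and Prm2 lie within 10 kb on the promoter side, and neither interval reached them.

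Socs2 encodes a regulator of growth hormone signalling and had the highest values of the family. The gene spans 33419 bp on chromosome 10 (95383903 to 95417321). Its LPS interval ran from 95414088 to 95417863 with a value of 31, and its NT interval from 95413749 to 95418076 with a value of 89. Both lay over the gene end with the higher coordinate and covered 9.68% (LPS) and 10.7% (NT) of the annotated span. In their own lists the LPS value was above 84.2% and the NT value above 97.4% of the intervals. The LPS interval lay wholly inside the NT interval and was 3776 bp wide, against 4328 bp in NT. The ratio was 0.348 (log2 -1.52), above 9.91% of the shared regions. Of 103 shared regions of like NT value, 94 had a ratio as high or higher (91.3%, 84.2 to 95.3%). The summits were 1424 bp apart, with the LPS summit nearer the lower coordinate. In 3638 merged regions with exactly 1 interval per library the median distance between summits was 112 bp. Of 214 of these with an NT width within 500 bp of that at Socs2, 1.87% had summits as far apart. These 214 regions were not matched by summit value. Socs2 combined the tallest NT interval of the family with a ratio on the low side of regions of like height.

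Socs3 encodes a feedback inhibitor that binds the IL-6 receptor subunit gp130 and JAK kinases. It was the member with most intervals, 2 in LPS and 2 in NT, on chromosome 11 (gene 117966079 to 117970336). The overlapping pair had values of 22 in LPS and 30 in NT, a ratio of 0.733 (log2 -0.45). Among shared regions of like NT value 5.06% of 1226 had a ratio as high or higher (3.96 to 6.43%). The LPS interval of the pair ran from -792 to 1991 bp and the NT interval from -307 to 2148 bp relative to the transcription start. Both covered the whole promoter shown above, and the LPS interval reached 485 bp further upstream of this start. The start used, at 117969366, lies inside the annotated gene, which runs on to 117970336. Both intervals of the pair lay wholly inside the gene, ending at 117970158 in LPS and 117969673 in NT. The LPS interval was 2784 bp wide, against 2456 bp in NT. An LPS interval wider than its NT partner was found in 18.9% of the 3638 regions with 1 interval per library, where the median width ratio of LPS to NT was 0.842. At Socs3 this ratio was 1.13, and of 470 regions with an NT width within 250 bp 4.68% had one as high. The summit lay 294 bp after the start in LPS and 1254 bp after it in NT. This distance of 960 bp was matched or exceeded in 3.86% of 959 regions with an NT width within 500 bp, which were not matched by summit value.

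The other intervals at Socs3 lay at the 3′ side and did not overlap each other. The LPS interval with a value of 13 ran from 3254 to 4352 bp after the transcription start and took in the last 34 bases of the gene. The NT interval with a value of 18 ran from 5096 to 6305 bp after the start. Its value was above 11.4% of the NT list, and the LPS value above 27.3% of the LPS list. An LPS interval that met no NT interval was found within 10 kb of 306 genes, 1.40% of all protein-coding genes. Only 4650 genes had any LPS interval there. A set of an overlapping pair, an LPS interval alone and an NT interval alone was found at 44 genes, 0.201% of all. Intervals of both libraries, which this set requires, were present at 4511 genes. The set was not among the planned counts. The LPS intervals at Socs3 lay under 2 kb apart. With intervals that close merged, they joined and met the NT interval of the pair, so none stood alone in LPS. Summed over the window, the unmerged intervals covered 3883 bp in LPS and 3666 bp in NT.

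**Figure D2:**
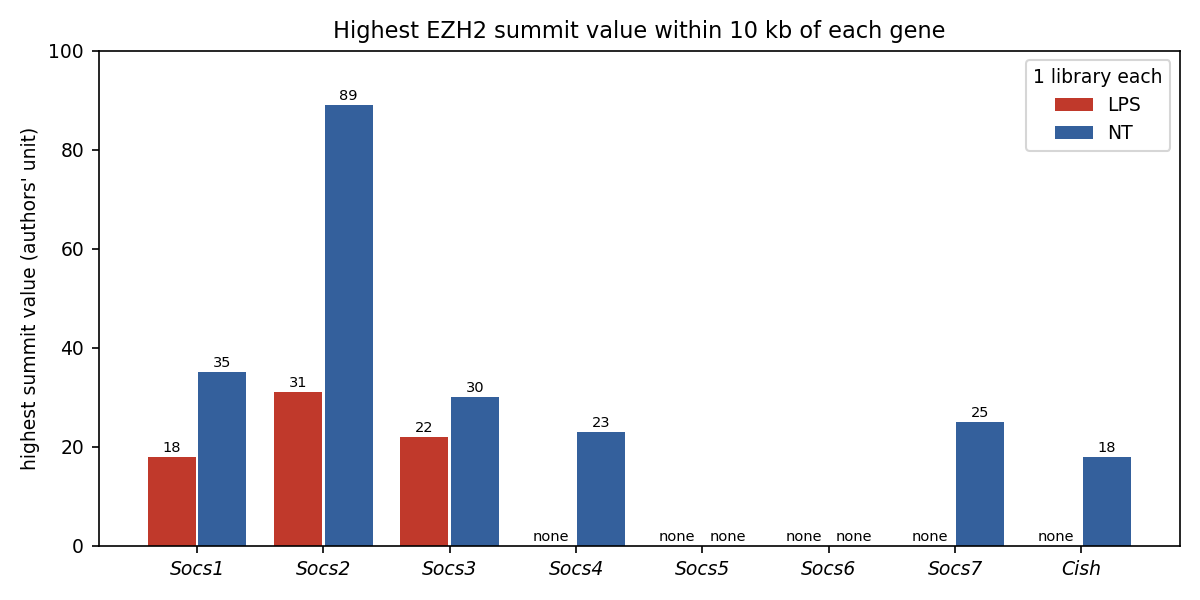
Highest summit value within 10 kb of each gene, as bars for LPS (left, red) and NT (right, blue), with 1 library each, the authors' unit and no error bars. Socs2 has the highest value in LPS (31) and in NT (89), and 5 genes have no LPS interval.

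By highest LPS value the order was Socs2 (31), Socs3 (22) and Socs1 (18). By highest NT value it was Socs2 (89), Socs1 (35), Socs3 (30), Socs7 (25), Socs4 (23) and Cish (18). The values of Socs7, Socs4 and Cish here came from intervals over other genes, and the interval inside Socs7 had 17. Socs1 and Socs3 changed places between the libraries. With 1 library per condition these neighbours in the order have no measured spread, so it is not known which of them differ. All 3 genes with intervals in both libraries had the lower value in LPS, as had 99.6% of the 4511 protein-coding genes with both. Their median ratio was 0.514, against 0.488 over those genes. Set against the median ratio of all shared regions, the ratio was 1.03 times the median at Socs1, 0.697 times at Socs2 and 1.47 times at Socs3.

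**Figure D3:**
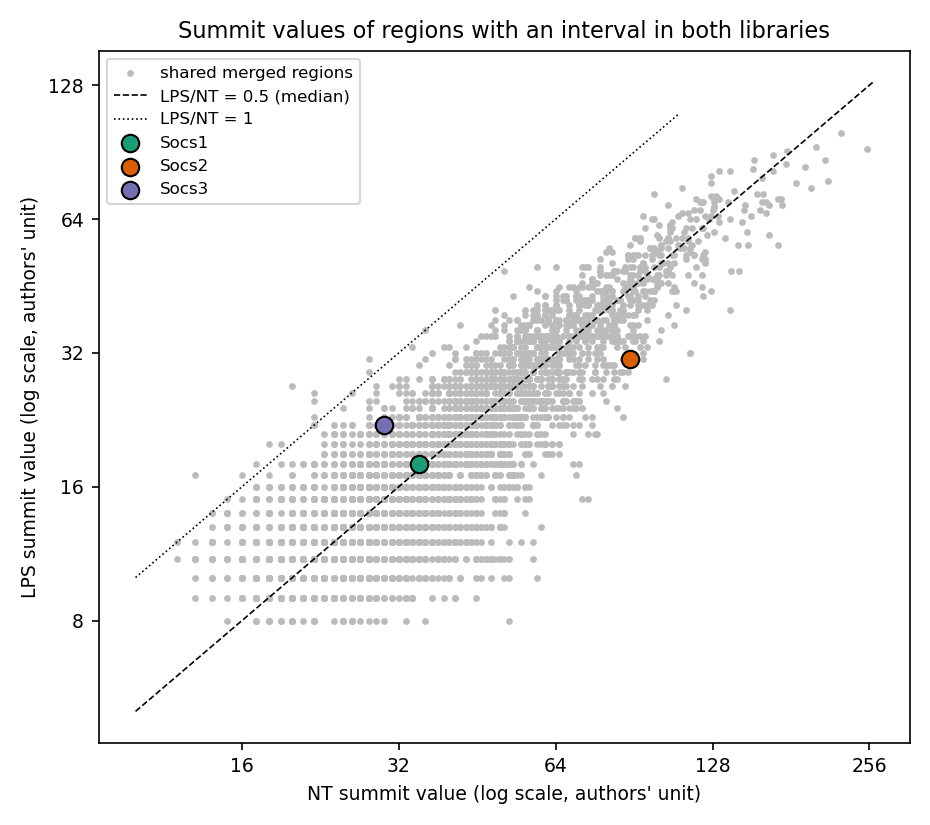
Summit values of the 4027 merged regions shared by both libraries, NT on the horizontal and LPS on the vertical axis, both on a log scale in the authors' unit. The dashed line is the median ratio of 0.50 and the dotted line a ratio of 1. Socs1 lies on the dashed line, Socs2 below it and Socs3 above it.

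Socs4, Socs7 and Cish had weak NT intervals and no LPS interval. Socs4 encodes a member linked to EGF receptor signalling, and its NT interval of 790 bp had a value of 23. Socs7 encodes an adaptor-like member, and its NT interval inside the gene, from 97362878 to 97364186 on chromosome 11, began 586 bp from the lower-coordinate end and had a value of 17. The one over Arhgap23 had 25. Cish encodes an inhibitor of STAT5 signalling, and its only NT interval had a value of 18. The nearest LPS interval was 87.4 kb from Socs4, 40.9 kb from Socs7 and 63.9 kb from Cish.

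The height of an NT interval went with the presence of an LPS partner over the whole list. Of NT intervals with a value within 2 of that at Cish, 353 of 1861 met an LPS interval (95% Wilson interval 17.3 to 20.8%). This share was 25.4% of 2090 at the value of Socs4. At the 2 values of Socs7 it was 17.5% of 1612 and 30.2% of 1962. It was 41.1% of 1400 at the value of the Socs3 pair, 54.6% of 901 at that of Socs1 and 45 of 45 at that of Socs2. The 5 NT intervals without a partner, including that at the 3′ side of Socs3, thus had values at which most NT intervals had none.

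**Figure D4:**
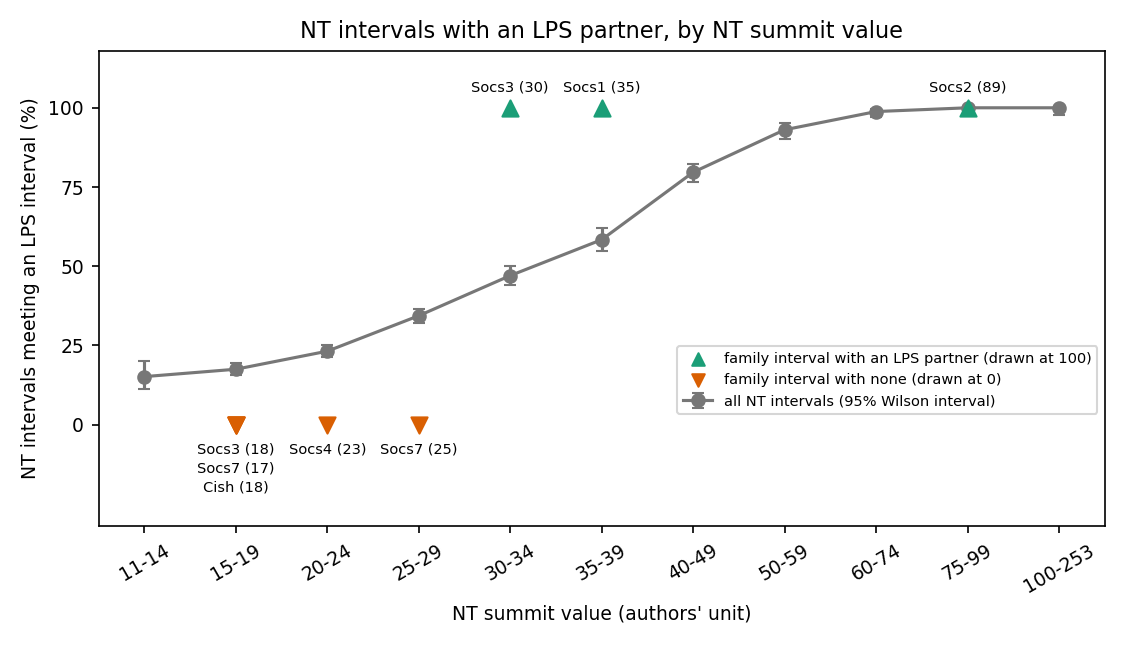
Share of all NT intervals that meet an LPS interval, in %, by NT summit value in the authors' unit (grey points, bars are 95% Wilson intervals). Triangles place the family's 8 NT intervals by their value, at 100 where an LPS interval meets them (values 30, 35 and 89) and at 0 where none does (values 17 to 25).

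Socs5 and Socs6 had no interval of either library within 10 kb. Socs5, whose product is linked to IL-4 and EGF receptor signalling, lay 351 kb from the nearest LPS interval and 144 kb from the nearest NT interval. Socs6, whose product binds the receptor tyrosine kinase Kit, lay 4144 kb from the nearest LPS interval and 874 kb from the nearest NT interval. The median gene lay 110 kb from an LPS interval and 16.4 kb from an NT interval. An interval lay nearer than at Socs6 for 98.8% of genes in LPS (counted over the 21631 genes on chromosomes with an LPS interval) and for 92.6% in NT. Among genes of 0.8 to 1.2 times the length of Socs5 and of Socs6, 47.4% and 48.2% had no interval of either library within 10 kb.

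The promoters with and without intervals were not ordered by their CG content. CG dinucleotides are dense in CpG islands, where polycomb complexes are often found. There were 18 in the Socs1 promoter and 31 in that of Socs3, which both libraries covered, and 34 in that of Socs4 and 11 in that of Cish, which neither library reached. Over all promoters the median was 7 CG, and 9.44% met an LPS interval and 24.4% an NT interval. Of 1294 promoters with a CG count within 2 of that of Socs4, 23.1% met an LPS and 67.0% an NT interval. For Socs3 these shares were 22.9% in LPS and 65.5% in NT of 1710 promoters, for Socs1 17.3% in LPS and 46.2% in NT of 2693, and for Cish 11.1% in LPS and 24.8% in NT of 3120. The promoter of Socs4 thus met no NT interval at a CG count where most promoters met one. Its window also overlapped the neighbouring gene Wdhd1.

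**Figure D5:**
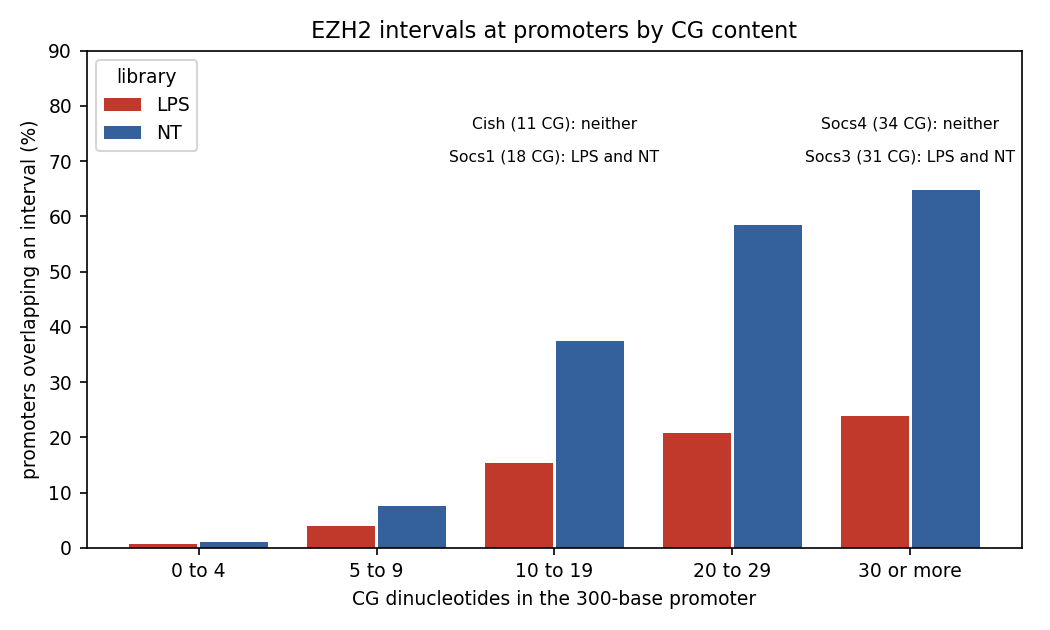
Share of RefSeq promoters of 300 bases that meet an interval, in %, for LPS (left, red) and NT (right, blue), by number of CG dinucleotides. Labels place the 4 family promoters by their CG count (18, 31, 34 and 11) and say whether intervals of LPS and NT or of neither cover them.

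The members were set beside 86 genes in 4 lists. These were JAK kinases and STAT factors, other inhibitors of cytokine signalling, receptors using JAK kinases, and SOCS box partners with other SOCS box genes. Of the 86 genes, 54 had an interval within 10 kb, of which 38 (70.4%) had one in NT alone. Over all protein-coding genes with an interval, this share was 54.5%. With the NT list shortened by summit value to as many intervals as LPS, these shares were 16 of 32 list genes and 31.0% of all genes. The values given are the highest within 10 kb, and need not come from the same place in both libraries. Of 11 JAK kinase and STAT genes, 3 had an LPS and 9 an NT interval within 10 kb, with 6 in NT alone. Those with both included the kinase gene Jak1 (13 in LPS, 24 in NT) and the lymphoid kinase gene Jak3 (21 in LPS, 55 in NT). Stat3, the main transducer of IL-6, had 37 in NT alone. Of 14 other inhibitors of cytokine signalling, 3 had an LPS and 10 an NT interval, with 7 in NT alone. Those with both were the ubiquitin ligase gene Cbl (25 in LPS, 38 in NT), the adaptor gene Sh2b3 (12 in LPS, 32 in NT) and Usp18 (12 in LPS, 25 in NT), whose product inhibits interferon receptor signalling. The phosphatase gene Ptpn2 had 46 in NT alone.

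Of 26 receptor genes that signal through JAK kinases, 3 had an LPS and 14 an NT interval, with 11 in NT alone. Osmr (18 in LPS, 43 in NT), the oncostatin M receptor gene, Epor (20 in LPS, 34 in NT), the erythropoietin receptor gene, and Lifr (14 in LPS, 32 in NT), the leukaemia inhibitory factor receptor gene, had both. Ifnar1, a type I interferon receptor gene, had 36 in NT alone. Of 35 SOCS box partners and other SOCS box genes, 7 had an LPS and 21 an NT interval, with 14 in NT alone. The 7 with both were Asb10 (29 in LPS, 83 in NT), Asb18 (27 in LPS, 82 in NT), Asb8 (25 in LPS, 43 in NT), Spsb4 (18 in LPS, 38 in NT), Rab40b (14 in LPS, 30 in NT), Spsb3 (13 in LPS, 28 in NT) and Spsb1 (9 in LPS, 33 in NT). None of the genes in these 4 lists had an LPS interval alone, except that 3 did with the shortened NT list. In LPS, 27.3% of the JAK and STAT genes, 21.4% of the other inhibitors, 11.5% of the receptors and 20% of the SOCS box list had an interval, against 21.2% of all genes. In NT these shares were 81.8%, 71.4%, 53.8% and 60%, against 46.0% of all genes. In NT alone they were 54.5%, 50%, 42.3% and 40%, against 25.4% of all genes. A longer gene has a wider window, and these shares were not matched by gene length. The median highest NT value over genes with an NT interval was 24, 28.5, 24.5 and 30 in the order given, against 29 over all genes. The LPS intervals counted for Asb18, Cbl, Asb10, Jak3 and Rab40b lay 9561, 6360, 3935, 1443 and 1270 bp outside the gene. The nearest NT intervals of Asb18 and Asb10 also lay outside the gene, at 9437 and 3840 bp, as did those of some list genes not named here. Stat5a with Stat5b, and Ifnar2 with Il10rb, shared NT intervals.

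For each member with an interval, the protein-coding gene with the most similar pattern was found from 4 values in the 2 libraries, the highest summit value and the covered bases in each. Likeness was the Euclidean distance over log2(value + 1). Socs1 was nearest to Rilpl1 (17 in LPS, 36 in NT, distance 0.159), Socs2 to Plxna4 (32 in LPS, 94 in NT, 0.117) and Socs3 to Nfib (20 in LPS, 35 in NT, 0.259). Socs4 was nearest to Tuba1a (23 in NT alone, 0.00728), Socs7 to Fiz1 (25 in NT alone, 0.00118) and Cish to Rnf7 (18 in NT alone, 0.00349). The intervals counted for Socs4 and Cish, and the Socs7 interval of 25, lay over other genes. These matches thus rest wholly or in part on neighbouring genes. These members and their matches had no LPS interval, so the NT values alone set the distances. The genes nearest to Socs7 numbered 3 at the same distance, of which Fiz1 comes first by symbol.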

How the data were processed

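Intervals, summits and merged regions of 2 EZH2 ChIP-seq libraries were deposited by the authors as 5 tracks on mm10, with a whole-number score for each summit, in a unit that is not stated. The submitters' processing notes name BWA, an aligner, and SICER, which joins enriched windows, without versions, and intervals were listed per library. Read depth, handling of duplicates and of the input, and scaling are not given in the sources used here. Deposited BED positions are printed 1-based. Every summit lay inside its own interval. Gene positions and promoters came from RefSeq GRCm38.p6. Intervals were assigned to a gene when at least 1 bp lay inside it or within 10 kb of it, and intervals of both libraries were paired at an overlap of 1 bp, with Python 3.11.15 and scipy 1.17.1. The counting was tested on simulated data, where 100% of 2000 genes were recovered. No test was possible with 1 library per condition. Wilson intervals at 95% cover counting error alone. Alternatives were other windows, stricter lists, merged intervals, stricter pairing, and ratios of covered bases or relative to the median ratio. Named genes were the members, their neighbours, genes of the 4 lists with an LPS interval or among the 2 highest NT values, and the most similar gene of each member, of which 1 is not reported here. The members and lists were chosen with earlier results of these data known.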

Additional observations from a re-analysis of the deposited data

How the results depend on the processing

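No paired analysis was possible because neither condition had a replicate. Of 372 recomputed values, 316 stayed within 1.5 times the reported one on the same side of a ratio of 1, 50 moved further and 6 crossed 1. Some of the 316 could not move, such as LPS counts and values when only the NT list was shortened. Highest summit values of 0, which stand for no interval, also could not change with narrower windows or stricter lists. The counts of members with an LPS interval and with both stayed close. The count of members with an NT interval was 3, and in NT alone 0, with intervals at or above the median value and also with the NT list shortened by value to as many intervals as LPS. These settings use fewer intervals by construction. With the shortened NT list, NT counts were 3 for JAK and STAT genes, 6 for other inhibitors and 6 for receptors. Counts in NT alone were then 2, 4 and 3, with 7 for the SOCS box list, and 2 JAK and STAT genes and 1 other inhibitor had an LPS interval alone. The LPS count of the SOCS box list was 4 with the gene body alone. The count of members in NT alone was 1 with the gene body alone and 1 without intervals nearer to another gene. Divided by the median ratio of shared regions, the LPS to NT ratio was 1.03 at Socs1, 0.697 at Socs2, 1.47 at Socs3 and 1.03 for the median of members with both. By covered bases it was 1.02 at Socs1, 0.872 at Socs2, 1.06 at Socs3 and 1.02 for that median; the cause was not tested. Summits of both libraries lay within 500 bp at 1 member, Socs1, in place of 3 members with overlapping intervals. The unknown depth limits every ratio.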
